A study of Triticum aestivum with 4 samples.

Results

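Amino acid transporters and a plasma membrane aquaporin were followed on 6 probe sets of the wheat array, of 61290 probe sets in all. A probe set is the bundle of short probes that reads a transcript on the array, and its name gives the cluster of wheat sequences from which it was designed. The members were the probe sets whose rice or Arabidopsis match names an amino acid transporter or permease in the study's list of 50 transcripts lower in UD-2, the other probe sets of their clusters, and every probe set of the cluster that holds the aquaporin TaAffx.8804.3.S1_s_at. This gave 3 probe sets of amino acid transporters, of which 2 share a cluster (Ta.27916.1.A1_s_at and Ta.27916.1.A1_x_at) and 1 is alone in its own (TaAffx.29399.1.S1_at), and 3 of the aquaporin cluster (TaAffx.8804.1.S1_s_at, TaAffx.8804.2.S1_at and TaAffx.8804.3.S1_s_at). The list holds 50 of the transcripts that the study called lower, not all of them. It was drawn from these same arrays for a lower signal in UD-2 than in WT. The direction of the 4 members on it was therefore fixed by the choice, and the values of all 6, with the count of those past the threshold, are given as a description that supports nothing further.

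The arrays, 2 of UD-2 and 2 of WT, measured RNA of flag leaves collected at anthesis. UD-2 is the wheat event pPTN1034-NN569-3-5-1 of genotype CB037, which carries the maize transcription factor gene ZmDof1 behind the constitutive UBI4 promoter of sugarcane, together with an nptII cassette for plant selection. WT is untransformed CB037, a spring wheat. The RNA on each array came from a pool of 3 plants. Both lines were grown in a greenhouse with 10 h of light and 14 h of dark, at 29°C by day and 24°C at night. UD-2 is a single transformation event, and its plants were identified by PCR for the transgene, so that an effect of ZmDof1 and one of the insertion site or of the selection cassette cannot be told apart here.

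Amino acid transporters carry amino acids across membranes, many of them together with protons, and in leaves they take part in loading amino acids into the phloem and in moving nitrogen out of ageing leaves towards the grain. Aquaporins are membrane channels for water. Those of the plasma membrane intrinsic protein (PIP) family sit in the plasma membrane and help to set how readily water passes into and out of the cell. The descriptions used here belong to rice and Arabidopsis matches, and no wheat gene is paired with any of the 6 probe sets in the annotation used here.

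All 6 probe sets had a lower mean signal in UD-2 than in WT, by 2.05-fold to 3.14-fold, a direction that 54.0% of all probe sets shared at any size. The median log2 fold change of the 6 was −1.40, beside −0.02 over the 61115 probe sets that are not controls. Both UD-2 pools lay under both WT pools on 6 of 6, a pattern that 25.9% of all probe sets showed. A decrease of at least 1 on the log2 scale was also seen on 6 of 6, against 0.668% of all probe sets. With limma at an adjusted p under 0.05, 5 of the 6 were lower and 0 were higher, where 0.281% of all probe sets were lower (172 probe sets) and 0.43% higher (263 probe sets). Since 4 of the 6 were picked for being lower on these arrays, nothing is read from these shares. With Benjamini-Hochberg adjustment 4 of the 6 were lower, the call of TaAffx.8804.1.S1_s_at being lost. Over all probe sets that adjustment gave 142 higher and 98 lower. The study names the method and threshold of the main fit, but its counts were smaller than those of that fit and close to these. The reason was not examined.

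**Figure D1:**
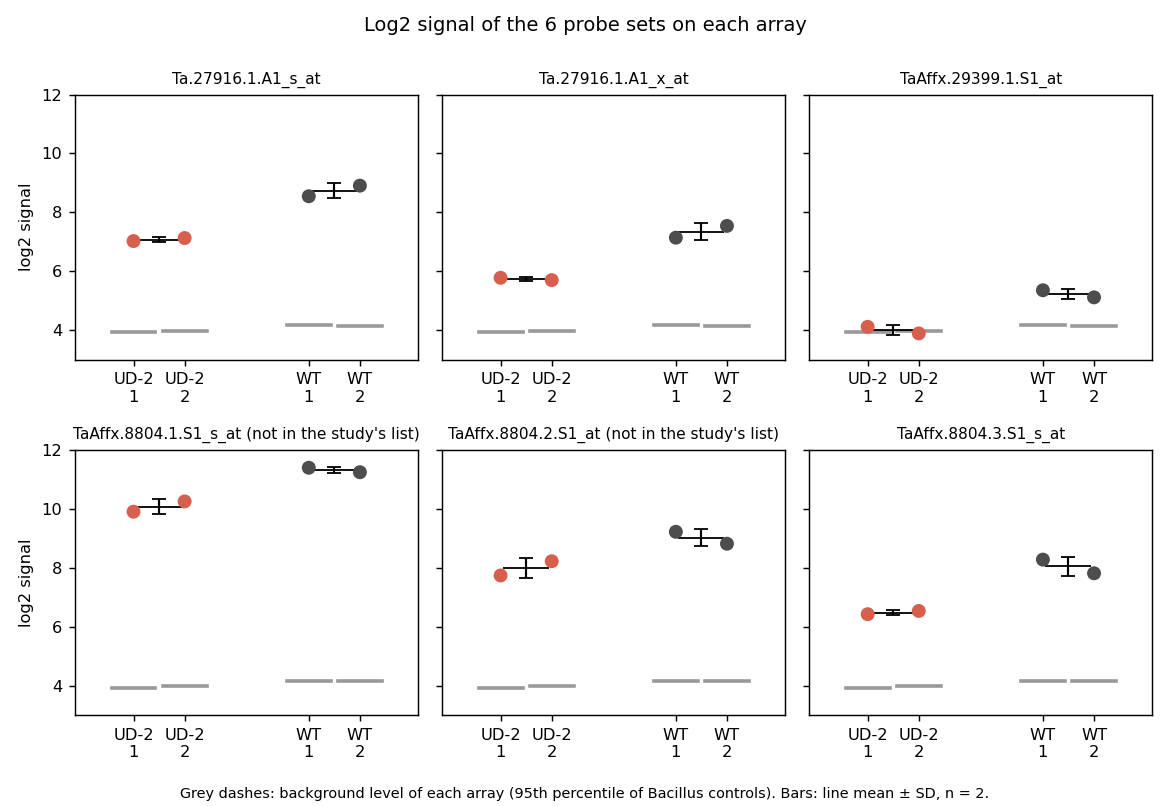
Log2 signal (vertical axis) of the 6 probe sets on each array, with UD-2 pools in red on the left and WT pools in dark grey on the right of each panel. Black bars are the line mean ± SD (n = 2) and grey dashes the background level of each array. Both UD-2 pools lie under both WT pools in every panel, and TaAffx.29399.1.S1_at is the only one that meets the background level.

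The cluster of Ta.27916.1.A1_s_at and Ta.27916.1.A1_x_at is matched to a transmembrane amino acid transporter protein in rice and to the amino acid transporter family in Arabidopsis. Ta.27916.1.A1_s_at had log2 signals of 7.03 and 7.13 in the UD-2 pools, against 8.55 and 8.91 in the WT pools. UD-2 averaged 7.08 ± 0.07 and WT 8.73 ± 0.26 (SD, n = 2 each), a log2 fold change of −1.65 (standard error 0.15) or a 3.14-fold lower signal. All standard errors given here are limma's moderated ones, whose variance is drawn towards that of all probe sets. They can therefore be smaller or larger than the printed SDs of a probe set would give. The UD-2 pools were close to each other and the WT pools further apart, and the highest UD-2 pool lay 1.42 under the lowest WT pool.

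Ta.27916.1.A1_x_at had log2 signals of 5.78 and 5.70 in the UD-2 pools, against 7.14 and 7.54 in the WT pools. UD-2 averaged 5.74 ± 0.06 and WT 7.34 ± 0.28 (SD, n = 2 each), a log2 fold change of −1.60 (standard error 0.16) or a 3.03-fold lower signal. The lines did not overlap, with a gap of 1.36. Both probe sets of this cluster were designed from the same wheat sequence, and the endings _s_at and _x_at mark probe sets with probes that match more than 1 transcript. They are therefore not counted as separate transporters.

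Probes differ in how brightly they bind, so that the log2 difference between these 2 probe sets within an array does not order their levels. It can be compared between arrays. Ta.27916.1.A1_x_at minus Ta.27916.1.A1_s_at was −1.25 and −1.43 in the UD-2 pools, against −1.41 and −1.37 in the WT pools. The lines overlapped on this difference, and its mean differed by 0.05 between them.

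TaAffx.29399.1.S1_at, the only probe set of its cluster, has the same rice and Arabidopsis descriptions. Its log2 signals were 4.12 and 3.89 in the UD-2 pools, against 5.36 and 5.12 in the WT pools. UD-2 averaged 4.00 ± 0.16 and WT 5.24 ± 0.17 (SD, n = 2 each), a log2 fold change of −1.23 (standard error 0.14). The lines were separated by 1.00.

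The signal of TaAffx.29399.1.S1_at is dim. The 42 Bacillus control probe sets read genes that wheat does not have, and their 95th percentile on each array was taken as the background level, which ran from 3.93 to 4.17. UD-2 replicate 1 lay 0.18 above that level on its array and UD-2 replicate 2 lay under it, at −0.10, while the WT pools lay 1.18 and 0.97 above it. With the UD-2 signal held at the background level where it was under it, the signal was 2.27-fold lower, against 2.35-fold as measured. The other 5 members were at least 1.71 above the background level on all 4 arrays.

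TaAffx.8804.3.S1_s_at, the 1 probe set of the aquaporin cluster in the study's list, is matched to an aquaporin protein in rice and to PIP2B, a water channel of the plasma membrane, in Arabidopsis. Its log2 signals were 6.43 and 6.54 in the UD-2 pools, against 8.28 and 7.82 in the WT pools. UD-2 averaged 6.48 ± 0.08 and WT 8.05 ± 0.33 (SD, n = 2 each), a log2 fold change of −1.57 (standard error 0.18) or a 2.96-fold lower signal. The gap between the lines was 1.28, and the WT pools were further apart than the UD-2 pools.

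The other 2 probe sets of the cluster are not in the study's list and carry no description of their own. Since that list is partial, their absence does not mean that the study did not call them lower. TaAffx.8804.1.S1_s_at had log2 signals of 9.91 and 10.26 in the UD-2 pools, against 11.40 and 11.25 in the WT pools. UD-2 averaged 10.08 ± 0.25 and WT 11.33 ± 0.11 (SD, n = 2 each), a log2 fold change of −1.24 (standard error 0.15) or a 2.37-fold lower signal. Here the UD-2 pools were the ones further apart, and the lines were separated by 0.99.

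TaAffx.8804.2.S1_at had log2 signals of 7.74 and 8.23 in the UD-2 pools, against 9.23 and 8.82 in the WT pools. UD-2 averaged 7.99 ± 0.34 and WT 9.02 ± 0.29 (SD, n = 2 each), a log2 fold change of −1.04 (standard error 0.22) or a 2.05-fold lower signal. It was the 1 member that did not pass the threshold. Its standard error was the largest of the 6 and its gap between the lines, 0.60, the smallest. Between single pools, the signal was from 1.51-fold to 2.79-fold lower in UD-2 on this probe set, against 2.43-fold to 3.61-fold lower on TaAffx.8804.3.S1_s_at.

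Within an array, the log2 difference of TaAffx.8804.3.S1_s_at minus TaAffx.8804.1.S1_s_at was −3.48 and −3.72 in the UD-2 pools, against −3.12 and −3.43 in the WT pools. The mean difference was lower by 0.32 in UD-2, and the lines were separated only narrowly. TaAffx.8804.3.S1_s_at minus TaAffx.8804.2.S1_at was −1.32 and −1.69 in the UD-2 pools, against −0.944 and −1.004 in the WT pools. The mean was lower by 0.53 in UD-2 with no overlap. TaAffx.8804.2.S1_at minus TaAffx.8804.1.S1_s_at was −2.16 and −2.03 in the UD-2 pools, against −2.17 and −2.43 in the WT pools, where the nearest pools of the lines lay side by side. The 3 probe sets of the aquaporin cluster thus did not give 1 size of decrease, and TaAffx.8804.3.S1_s_at gave the largest of the 3. These differences come from the comparison used to choose TaAffx.8804.3.S1_s_at and were not tested. TaAffx.8804.1.S1_s_at and TaAffx.8804.3.S1_s_at also carry the ending _s_at, so each may read more than 1 transcript. The sizes are therefore not taken as those of 1 aquaporin gene.

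**Figure D2:**
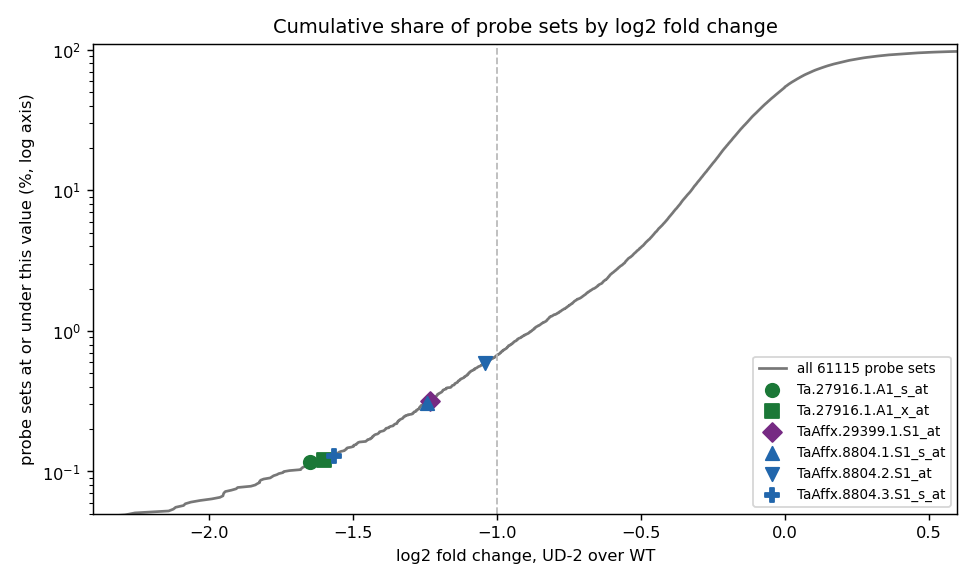
Share of the 61115 probe sets at or under each log2 fold change of UD-2 over WT (horizontal axis, vertical axis in percent on a log scale), with the 6 probe sets marked on the curve. All 6 lie left of the dashed line at −1, which 0.668% of all probe sets reach.

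The pools of a line also differed among themselves, and between the WT pools the probe sets of a cluster differed in 1 direction. WT replicate 2 was 0.36 above WT replicate 1 on Ta.27916.1.A1_s_at and 0.40 above it on Ta.27916.1.A1_x_at. On the aquaporin cluster, WT replicate 2 lay under replicate 1, with differences of −0.15 on TaAffx.8804.1.S1_s_at, −0.40 on TaAffx.8804.2.S1_at and −0.46 on TaAffx.8804.3.S1_s_at. The WT pool with the higher signal was thus replicate 2 for the 2 probe sets of Ta.27916.1 and replicate 1 for the aquaporin and for TaAffx.29399.1.S1_at (−0.24).

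Between the UD-2 pools, replicate 2 lay above replicate 1 on all 3 aquaporin probe sets, by 0.35 on TaAffx.8804.1.S1_s_at, 0.48 on TaAffx.8804.2.S1_at and 0.11 on TaAffx.8804.3.S1_s_at. The differences on Ta.27916.1.A1_s_at (0.10) and Ta.27916.1.A1_x_at (−0.08) were small and of opposite sign, and that on TaAffx.29399.1.S1_at was −0.22. Over all 61115 probe sets the middle 90% of such differences ran from −0.41 to 0.40 between the UD-2 pools and from −0.39 to 0.37 between the WT pools. TaAffx.8804.2.S1_at lay outside that range in both lines, and Ta.27916.1.A1_x_at and TaAffx.8804.3.S1_s_at in WT. The smallest decrease of any member between a UD-2 pool and a WT pool was 0.60 on the log2 scale, on TaAffx.8804.2.S1_at. The largest of the members' differences between pools of 1 line was 0.48. Since most members were picked for being lower in UD-2 on these arrays, nothing is read from setting these values side by side.

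**Figure D3:**
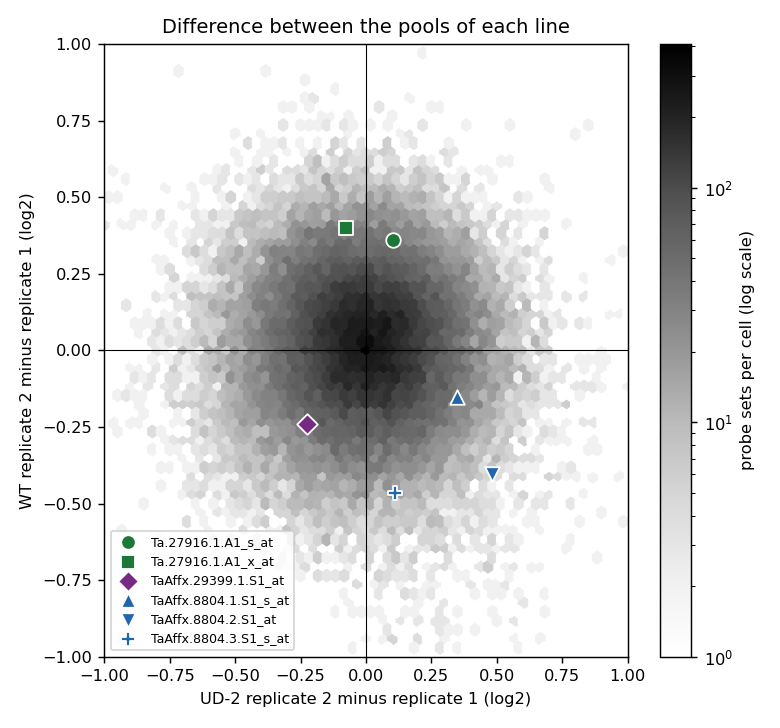
Log2 difference between replicate 2 and replicate 1 in UD-2 (horizontal axis) and in WT (vertical axis) for all probe sets (grey, darker where more lie) and for the 6 members (symbols). Both probe sets of Ta.27916.1 lie above 0 in WT and near 0 in UD-2, while the 3 of the aquaporin cluster lie under 0 in WT and above 0 in UD-2.

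The pattern over the 4 arrays was also compared between members, as the root mean square (RMS) difference of their log2 signals after each probe set was centred on its own mean. It was 0.07 between the 2 probe sets of Ta.27916.1. Within the aquaporin cluster it was 0.14 between TaAffx.8804.1.S1_s_at and TaAffx.8804.2.S1_at, 0.21 between TaAffx.8804.1.S1_s_at and TaAffx.8804.3.S1_s_at, and 0.30 between TaAffx.8804.2.S1_at and TaAffx.8804.3.S1_s_at. Between TaAffx.29399.1.S1_at and the other transporter it was 0.32 for Ta.27916.1.A1_s_at and 0.30 for Ta.27916.1.A1_x_at. Against the 3 aquaporin probe sets it was 0.20 to 0.27. These values rest mainly on the difference between the lines, and those of TaAffx.29399.1.S1_at also on UD-2 signals near the background level.

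Outside the members, the probe set with the pattern nearest to both probe sets of Ta.27916.1 was TaAffx.21788.1.S1_at, which has no description here, at an RMS difference of 0.02 from Ta.27916.1.A1_s_at and 0.06 from Ta.27916.1.A1_x_at. In the UD-2 pools its log2 signals were 3.78 and 3.85, under the background level, against 5.27 and 5.67 in the WT pools. Among the next nearest to Ta.27916.1.A1_s_at were the phosphatidylinositol-4-phosphate 5-kinase TaAffx.66666.1.A1_at (0.08), of a family that makes a membrane signalling lipid, and Ta.28750.1.S1_x_at (0.12), matched to the photosystem II subunit PSBR. The fourth was Ta.18261.1.S1_a_at (0.14), with no description, and the fifth Ta.9751.1.A1_at (0.14), matched to the transporter ATATH8 in Arabidopsis. For Ta.27916.1.A1_x_at they were Ta.28750.1.S1_x_at (0.11), the aspartic proteinase probe sets Ta.23348.1.A1_x_at (0.12) and Ta.23348.1.A1_at (0.13), and Ta.16669.1.S1_x_at (0.13), which has no description and was under the background level in both UD-2 pools.

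The nearest to TaAffx.29399.1.S1_at were TaAffx.106925.1.S1_at (0.04), Ta.17683.1.S1_at (0.06), TaAffx.9160.1.S1_at (0.06) and TaAffx.6797.2.S1_at (0.08), none with a description, and Ta.20870.1.S1_at (0.07), matched to the membrane protein HHP1. Of these, TaAffx.9160.1.S1_at was under the background level in both UD-2 pools. The nearest to TaAffx.8804.3.S1_s_at was TaAffx.54367.1.S1_at (0.09), described as a membrane protein with a CBS domain. It was followed by Ta.25795.1.A1_at (0.10), Ta.2784.1.A1_at (0.12), Ta.1967.1.S1_x_at (0.12) and Ta.12098.1.S1_at (0.13), without descriptions. With 4 arrays in 2 lines, most of this likeness is the difference between the lines itself, so that it orders probe sets by the size of that difference and by which pool was higher.

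Other transport proteins were looked for among the 100 transcripts that the study describes. These are only part of the transcripts that it called, so that the counts below do not cover all its calls. Of the 50 higher in UD-2, 0 are described as a transporter, carrier protein, permease or water channel, and of the 50 lower in UD-2, 6 are. Of these 6, 4 are the amino acid transporter and aquaporin probe sets above. Ta.3979.1.S1_at is a mitochondrial carrier matched to BOU, which carries metabolites across the inner mitochondrial membrane in Arabidopsis. Its log2 signals were 5.71 and 6.02 in the UD-2 pools, against 7.14 and 7.35 in the WT pools, a log2 fold change of −1.38. Ta.9751.1.A1_at, matched to ATATH8 in Arabidopsis and to an ELMO/CED-12 family protein in rice, had 6.02 and 6.09 in the UD-2 pools, against 7.45 and 7.54 in the WT pools, a log2 fold change of −1.44. These 2 lay between Ta.27916.1.A1_x_at and TaAffx.29399.1.S1_at in size, and were likewise chosen by the study for being lower.

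Genes of transport that were not chosen for their values could be named on few probe sets, since only 1273 have a gene in the annotation. Lists of amino acid transporters, aquaporins, nitrate, ammonium and peptide transporters, nitrogen assimilation enzymes, and sugar and ion transport matched 0 of these by name. Only part of the 1273 carry a descriptive gene name, so the 0 does not mean that such genes are absent from them. The 3 transport genes found among the gene synonyms were the plasma membrane proton pump ha1, the vacuolar cation channel TPC1 and the malate transporter ALMT1. The proton pump keeps up the proton gradient that drives proton-coupled amino acid uptake.

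On the proton pump, Ta.28364.1.S1_at had log2 signals of 12.88 and 12.85 in the UD-2 pools, against 12.81 and 12.84 in the WT pools. With limma this gave a log2 fold change of 0.05 with a standard error of 0.11 and an adjusted p of 0.619. For Ta.28364.1.S1_x_at limma gave 0.04 (adjusted p = 0.633), and for TaAffx.55278.1.S1_x_at 0.05 (adjusted p = 0.6). On all 3 the lines differed by less than limma's moderated standard error of 0.11. That error is larger than the SDs within the lines, which were 0.02 in each line on Ta.28364.1.S1_at. Both UD-2 pools lay slightly above both WT pools on Ta.28364.1.S1_at and Ta.28364.1.S1_x_at, while the lines overlapped on TaAffx.55278.1.S1_x_at.

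TPC1 (Ta.28747.1.S1_at) had log2 signals of 9.49 and 9.49 in the UD-2 pools, against 9.40 and 9.52 in the WT pools, a log2 fold change of 0.03 (limma, adjusted p = 0.651). ALMT1 (Ta.30659.1.S1_at) had 3.73 and 3.45 in the UD-2 pools, against 3.93 and 3.95 in the WT pools, and all 4 arrays were under the background level. Of the 5 probe sets of these genes, 0 were called higher and 0 lower. The difference between the members and these genes was not tested.

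The arrays as a whole bear on these values as follows. The array medians were 4.54 and 4.53 for the UD-2 pools, against 4.60 and 4.58 for the WT pools. The background levels were 3.93 and 3.99 for the UD-2 pools, against 4.17 and 4.15 for the WT pools, so that both were lower in the UD-2 arrays. Pearson's r over probe sets, which are not independent, was 0.994 within each line and 0.984 to 0.991 between lines. No probe set for the maize gene ZmDof1 was looked at. A reporter control probe set of the array had log2 signals of 11.22 and 10.70 in the UD-2 pools, against 4.62 and 5.47 in the WT pools, so that the libraries labelled UD-2 and WT stood apart on it. The 27 hybridization control probe sets, whose RNA is added in the laboratory, all had a higher mean in UD-2, with a median of 0.27 on the log2 scale. The difference between the 3′ and the 5′ probe set, a sign of RNA quality, was 0.20 higher in UD-2 for actin and 0.16 higher for the elongation factor ef1a. For gapdh it was lower by 0.17, so that the 3 controls did not move one way. The lines overlapped on actin but not on ef1a or gapdh. For actin and gapdh the 5′ probe set was the brighter one on all 4 arrays, with differences from −2.26 to −1.77. With every array centred at its median, the members' log2 fold changes ran from −1.60 to −0.98, against −1.65 to −1.04 as deposited. The part of the other shifts in the members' values was not tested. Of 31 probe sets for the leaf genes rbcl, PsbO and PsbP, 15 were above the background level on all arrays and 14 under it on all, with 0 called. These are only the probe sets that the annotation names, so they do not stand for all photosynthesis transcripts. Ta.28750.1.S1_x_at, matched to PSBR, has no gene there and is in the study's list of lower transcripts (log2 fold change −1.43). The study reports lower expression of photosystem II subunits in UD-2. Their log2 summed signal was 16.08 to 16.10 in the UD-2 pools and 16.15 to 16.19 in the WT pools. Of 14 probe sets for grain storage proteins, 10 were under it on all arrays and 3 above it on all, with 0 called. Their log2 summed signal was 10.83 to 10.94 in the UD-2 pools and 10.48 to 10.58 in the WT pools, and their part in the members' values was not tested. In such tissue samples, fewer cells of a type and less RNA per cell cannot be told apart.

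With any 1 of the 4 arrays left out, the members kept a lower signal in UD-2, which the lack of overlap between the lines already fixes, and 0 of the 6 passed the limma threshold, as did 0 of all probe sets, whichever array was left out. The log2 fold change of Ta.27916.1.A1_s_at then ran from −1.83 without WT replicate 1 to −1.47 without WT replicate 2, and that of Ta.27916.1.A1_x_at from −1.80 to −1.40 on leaving out the same arrays. For TaAffx.8804.3.S1_s_at the order of the WT pools was turned, with −1.80 without WT replicate 2 and −1.33 without WT replicate 1. The log2 fold change of TaAffx.8804.2.S1_at ran from −1.28 to −0.80, the first on leaving out UD-2 replicate 2 and the second on leaving out replicate 1 of that line. It ran from −1.42 to −1.07 for TaAffx.8804.1.S1_s_at and from −1.35 to −1.11 for TaAffx.29399.1.S1_at.

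**Figure D4:**
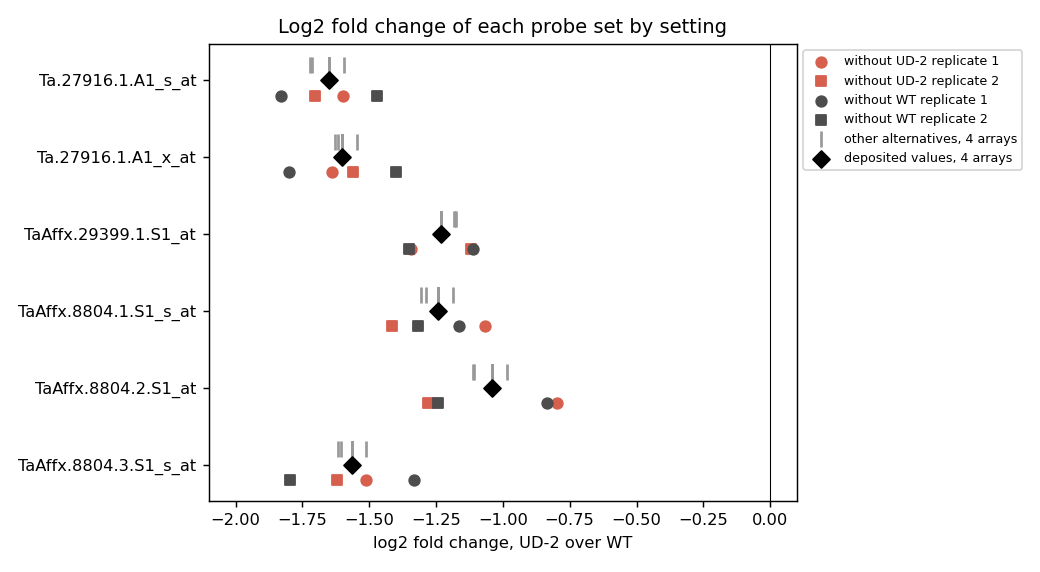
Log2 fold change of UD-2 over WT (horizontal axis) for each of the 6 probe sets, with the deposited values (black diamonds), the other alternatives on all 4 arrays (grey ticks) and 1 array left out (red for a UD-2 array, dark grey for a WT array, circles for replicate 1 and squares for replicate 2). The values lie between −1.83 and −0.80, and for each probe set the value furthest from the black diamond is one with an array left out.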

How the data were processed

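The authors hybridized biotinylated cRNA to Affymetrix GeneChip Wheat Genome Arrays, ran robust multiarray average (RMA) with the Affy package, and deposited the resulting log2 signals of each array. RMA corrects for background, equalises the arrays and sums up the probes of a set. R 3.1.1 and limma are named in the processing notes of the submitters. The Affy version was not given in the sources used here. The array holds 61290 probe sets, of which 175 controls were left out. For the other 61115, limma 3.58.1 (R 4.3.3, lmFit and eBayes) compared the deposited log2 values of the lines with no covariates. Adjustment over all 61115 followed Storey and Tibshirani, at a threshold of 0.05 and an estimated unchanged share of 0.708. The fit was tested on simulated data. Tables were made with Python 3.11.15 and pandas 2.3.3. The p-values measure only the spread between these pools, which may in part be technical, and precision is limited by having 4 arrays. The alternatives tried were other adjustments, filters and normalizations, a replicate block and each array left out.

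The members and lists were chosen with earlier results of these data known. Named were all members, the 5 probe sets nearest in pattern to each member of the study's list, and listed transport genes. The list of 3 transport genes, taken from synonyms, was added after the other lists were found empty. Gene names came from the platform annotation, and 1272 of 1273 gene IDs matched the wheat RefSeq table. No sequence of a member was in the tables used here, and probe-level intensities, qRT-PCR and plant measurements were not analysed here.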

Additional observations from a re-analysis of the deposited data

How the results depend on the processing

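All 6 members kept a lower signal in UD-2 under all 14 alternatives, with log2 fold changes from −1.83 to −0.80. On all 4 arrays only the 3 normalizations can change a fold change, and they moved the 18 values by up to 0.07, to between −1.72 and −0.98. The call was kept by 4 of the 6 members with Benjamini-Hochberg adjustment. Over all probe sets, 435 were called, against 240 with Benjamini-Hochberg adjustment, 837 with robust eBayes, 1270 without dim probe sets, 685 after quantile normalization, 655 after cyclic loess normalization and 1116 after centring every array at its median. With that centring 319 calls were lower and 797 higher, against 172 lower and 263 higher as deposited, so that lower calls were 28.6% of all calls against 39.5%. With a replicate block, 27 probe sets and 0 members were called. That fit also has only 1 residual degree of freedom, fewer than the main fit, so its lower counts cannot be read as an effect of pairing. The replicate numbers are not known to pair the arrays, and the deviations of same-numbered arrays from their line means had a correlation of −0.09 over probe sets. With 1 array left out, 0 to 0 probe sets and 0 to 0 members were called by limma, while 5114 to 8779 probe sets had an unadjusted p under 0.05. Such a fit has 1 residual degree of freedom, and the single array of a line is assumed to vary like the other line. No named probe set matched any of the 5 pathway lists, so that no value could be given for them. Signal over background limits TaAffx.29399.1.S1_at in UD-2.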
